A study of Mus musculus with 36 samples.

Results

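The nuclear genes for subunits of respiratory chain complexes I, II, III and V were followed through the development and maturation of the mouse heart. Members were taken by gene symbol, as the Nduf genes with the letters a, b, c, s or v and a number, the Sdha to Sdhd genes, the Uqcr genes and the Atp5 genes, with 1 probe set per gene, the one with the highest mean over all arrays. They came to 65 of the 20701 genes on the array and were covered by 131 probe sets. Complex I supplied 34 of them, complex II 4, complex III 8 and complex V (the ATP synthase) 15. The other 4 were Ndufa4, first assigned to complex I and now placed in complex IV, its paralogue Ndufa4l2, the coupling factor Atp5s, and Atp5sl, named for its likeness to Atp5s. Of the 65 members, 63 had a mean log2 intensity above 5 in at least 1 stage. Ndufb4 (mean over all arrays 2.70) and Ndufa4l2 (4.18) lay below that limit.

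Hearts of OF1 mice, an outbred stock carrying no transgene and given no treatment, were collected daily between E10.5 and E19.5, from young adults (10 weeks) and from old adults (14 months in the submitted description, a younger age in the study's methods). Each of the 12 stages had 3 arrays, which makes 36. All arrays of E10.5 and E11.5 held hearts of mixed sex, and every later stage had 1 female, 1 male and 1 mixed array. By the methods the female and the male array each came from 1 pup, and the mixed arrays from hearts of both sexes. RNA was taken from homogenised hearts, so a value is an average over all cell types of the organ, and no sorting or staging beyond age was stated. In such bulk samples, fewer cells of a type and less RNA per cell cannot be told apart.

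Complex I oxidises NADH and passes the electrons to ubiquinone, complex II does the same from succinate, and complex III hands them on to cytochrome c. The protons that complexes I and III move across the inner mitochondrial membrane drive ATP synthesis by complex V. The core subunits of complex I carry the flavin, the iron-sulphur clusters or the ubiquinone site, whereas the accessory subunits surround them and hold the complex together. The adult heart has one of the highest mitochondrial contents of all tissues and works mainly on fatty acid oxidation, whereas the embryonic heart relies more on glycolysis. Most subunits are encoded in the nucleus, and a smaller set in the mitochondrial genome.

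The stretch just before the transcription start is shown for 7 members, because these genes mark the contrasts described further on: a complex I gene that climbed from the first to the last embryonic stage (Ndufb7), genes with low means in mid-gestation (Ndufs4, Ndufs5, Sdhd), and the 3 genes that encode the same ring subunit of complex V (Atp5g1, Atp5g2, Atp5g3). Sequences were those of RefSeq for build GRCm38.p6, 250 bases upstream of each start, written 5′ to 3′ on the strand of the gene. Capitals mark matches on either strand to 4 motifs: GCGCA, any base and GCGC (NRF1), CCGGAAG (ETS, the family of GABPA), AAGATGGCG (YY1) and AAGGTCA (ERR). Ndufb7 lies on the plus strand (chr8:83566508-83566757) and the others on the minus strand, Ndufs5 at chr4:123718187-123718436, Sdhd at chr9:50603850-50604099, Ndufs4 at chr13:114388095-114388344, Atp5g1 at chr11:96075632-96075881, Atp5g2 at chr15:102671048-102671297 and Atp5g3 at chr2:73911327-73911576.
Ndufb7: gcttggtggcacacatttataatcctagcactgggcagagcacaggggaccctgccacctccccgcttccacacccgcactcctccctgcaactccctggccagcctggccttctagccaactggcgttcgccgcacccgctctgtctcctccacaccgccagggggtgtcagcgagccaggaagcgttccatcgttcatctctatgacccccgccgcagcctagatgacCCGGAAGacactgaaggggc
Ndufs5: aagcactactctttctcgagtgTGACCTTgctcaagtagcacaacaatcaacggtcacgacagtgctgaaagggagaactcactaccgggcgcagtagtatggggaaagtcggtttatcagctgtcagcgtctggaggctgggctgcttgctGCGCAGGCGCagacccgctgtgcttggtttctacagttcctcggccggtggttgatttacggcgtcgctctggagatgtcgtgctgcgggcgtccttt
Sdhd: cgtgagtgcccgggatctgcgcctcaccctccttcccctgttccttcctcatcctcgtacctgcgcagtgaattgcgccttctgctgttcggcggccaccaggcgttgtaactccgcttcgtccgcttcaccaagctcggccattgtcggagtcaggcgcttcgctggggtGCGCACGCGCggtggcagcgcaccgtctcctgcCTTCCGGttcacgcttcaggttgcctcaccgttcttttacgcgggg
Ndufs4: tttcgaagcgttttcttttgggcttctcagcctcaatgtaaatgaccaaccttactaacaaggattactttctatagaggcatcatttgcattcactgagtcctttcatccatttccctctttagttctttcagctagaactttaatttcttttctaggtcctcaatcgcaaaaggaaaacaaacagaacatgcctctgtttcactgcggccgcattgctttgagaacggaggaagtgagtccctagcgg
Atp5g1: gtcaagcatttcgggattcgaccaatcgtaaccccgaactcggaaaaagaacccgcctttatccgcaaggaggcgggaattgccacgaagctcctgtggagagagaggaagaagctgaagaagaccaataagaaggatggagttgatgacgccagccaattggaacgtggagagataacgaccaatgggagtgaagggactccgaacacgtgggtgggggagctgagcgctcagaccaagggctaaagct
Atp5g2: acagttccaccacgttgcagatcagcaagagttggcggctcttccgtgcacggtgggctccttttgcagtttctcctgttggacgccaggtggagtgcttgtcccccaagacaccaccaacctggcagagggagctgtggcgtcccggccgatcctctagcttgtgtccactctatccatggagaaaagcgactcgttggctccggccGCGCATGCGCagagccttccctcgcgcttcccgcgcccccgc
Atp5g3: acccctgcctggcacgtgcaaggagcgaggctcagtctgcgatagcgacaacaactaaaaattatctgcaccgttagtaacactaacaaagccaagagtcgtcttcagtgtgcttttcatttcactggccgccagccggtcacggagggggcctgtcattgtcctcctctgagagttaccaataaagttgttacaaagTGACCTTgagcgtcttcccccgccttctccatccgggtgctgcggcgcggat
The 3 ring genes differed in these letters. Atp5g2 held an NRF1 match 42 bases before its start and Atp5g3 an ERR match 52 bases before, while the Atp5g1 stretch held none of the 4 motifs. Sdhd held NRF1 and ETS matches 79 and 46 bases before its start, and Ndufs5 ERR and NRF1 matches 228 and 98 bases before. The ETS match of Ndufb7 began 20 bases before the start, and the Ndufs4 stretch held no match. Among all members, 55 had a RefSeq promoter of 300 bases (250 before and 50 after the start), with 61 promoters in total. NRF1 was matched in 16 of the 61 (26.2%, against 4.6% of 32851 mouse promoters), ETS in 13 (21.3% against 8.86%), YY1 in 9 (14.8% against 1.4%) and ERR in 8 (13.1% against 4.72%). With the 50 bases after the start included, there was also an NRF1 match for Atp5g3, an ERR match for Sdhd and a YY1 match for Ndufs4. At least 1 of the 4 motifs was found for 32 of the 55 members, against 19.9% of all genes. The motifs do not overlap in their letters, and a match describes the sequence alone.

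Before the stages were compared, the arrays were checked. The cardiomyocyte markers Tnnt2, Actn2, Ryr2, Tnni3, Mybpc3, Pln and Nppa all had means above 5 in every stage, and the mean of the 7 ran from 10.5 to 10.8 at E10.5 and from 11.0 to 11.5 at E19.5. The extraction protocol names liver, but none of 4 liver markers, Alb among them, passed a mean of 5 in any stage. No 2 arrays held identical values. Bacterial transcripts added to each hybridisation mix (18 control probe sets) were not level, with log2 stage means of 9.90 (E10.5), 10.95 (E14.5), 11.16 (E19.5), 12.17 (young adults) and 11.37 (old adults). The log2 gap between 3′ and 5′ probe sets of Gapdh and Actb, a sign of RNA length, was 2.83 (E10.5), 4.32 (E14.5), 4.0 (E19.5), 2.33 (young adults) and 2.60 (old adults). Sample titles changed their form within E16.5, so that 20 arrays of the earlier stages and 16 of the later ones had different title forms, and E16.5 alone had both.

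The hybridisation controls moved with the members inside the stages. When the stage means were removed, the median of the members had a Pearson correlation of -0.88 and a Spearman correlation of -0.89 with the control level over the 36 arrays, which share 1 normalisation. Within stages, 54 of the 65 members had a negative slope on the control level that passed adjusted p below 0.05 (limma, Benjamini-Hochberg over all probe sets) and 2 had a positive one, where 36.7% and 13.8% of the 11317 genes above the limit did so. At E10.5 the control level was 9.68, 9.68 and 10.3 on replicates 1, 2 and 3, and the members stood 0.15, 0.18 and -0.32 from their stage means (median). At E14.5 the control level was 11.1, 11.1 and 10.6, and the members stood at -0.15, -0.21 and 0.36. The third replicate was thus the low one at E10.5 and the high one at E14.5. The part of this in the differences between stages was not tested, and the counts of the main stage comparisons are therefore also given with the control level as a covariate. The slope of that fit rests on the spread within stages (SD 0.13 to 0.54), while the stage means of the controls ran from 9.90 to 12.17. Between stages whose control levels do not overlap, values with the covariate are extrapolations, and control level and stage cannot be told apart.

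**Figure D1:**
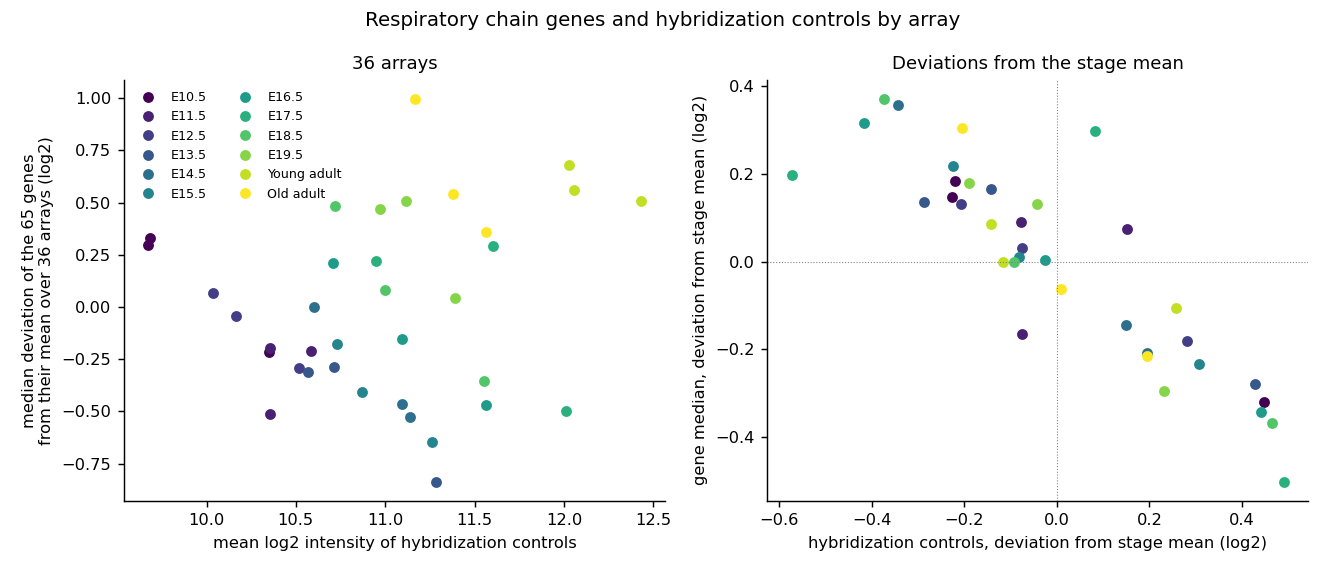
Median deviation of the 65 members (log2, y axes) against the mean log2 intensity of the hybridisation controls (x axes) for the 36 arrays, coloured by stage, as measured (left) and after the stage means were removed from both (right). In the right panel arrays with a high control level lay low for their stage, with a Pearson correlation of -0.88.

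Over the whole series the median of the members passed through a trough in mid-gestation and was highest in adults. Relative to E10.5, the median of the 65 log2 differences was -0.36 on E11.5, -0.17 on E12.5, then -0.59, -0.50 and -0.61 on E13.5, E14.5 and E15.5. It then stood at -0.26, -0.21 and -0.15 on the next 3 days and at 0.31 on E19.5, and it was 0.52 in young and 0.47 in old adults. Among the embryonic stages, 30 members had their lowest mean at E15.5, 16 at E13.5 and 12 at E10.5. Over all 12 stages, 23 members peaked in old adults, 19 in young adults, 10 at E18.5 and 9 at E10.5. The complexes did not share 1 course, since the median of complex I was 0.49 above E10.5 at E19.5 and those of complexes II and V were -0.21 and -0.06. With the control level as a covariate the trough was not seen at E14.5, where the median of all members was 0.39 above E10.5.

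**Figure D2:**
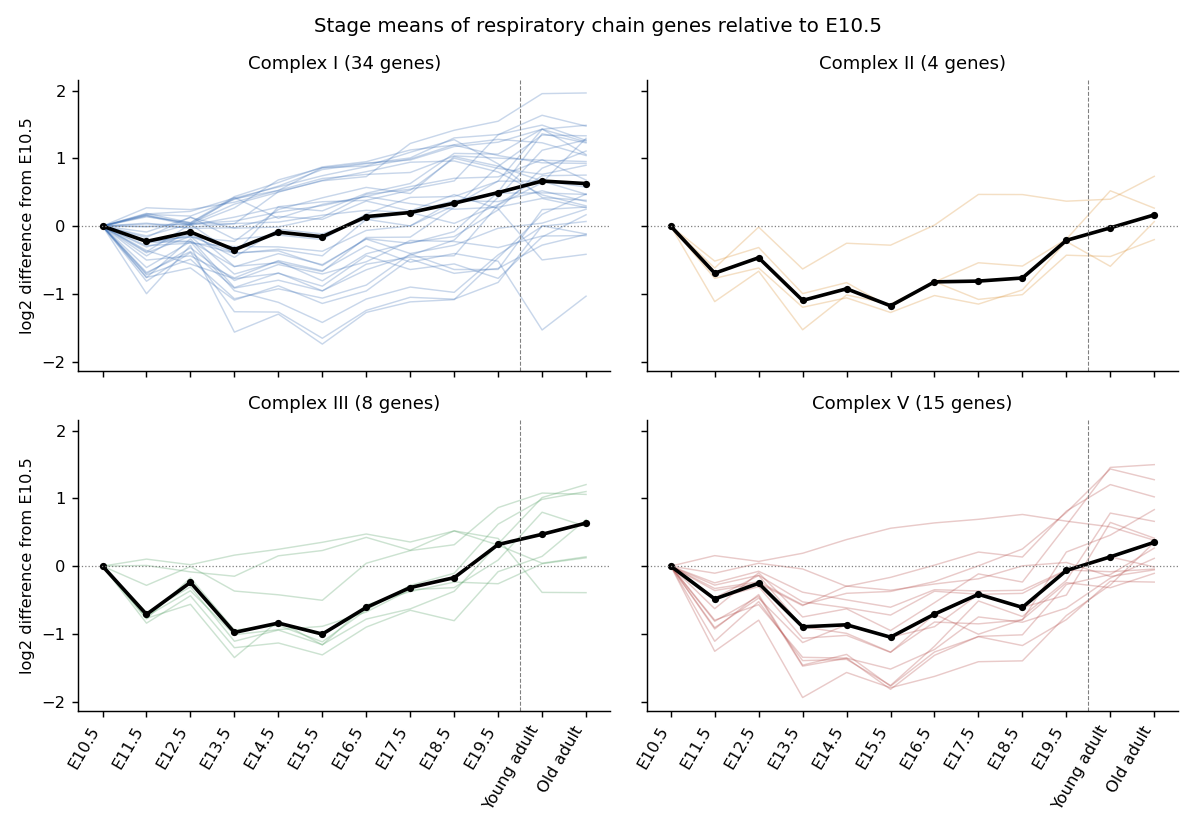
Log2 difference of the stage mean from E10.5 (y axis) for each member (thin lines) and the median of its complex (black) over the 12 stages (x axis), with a dashed line between the embryonic and adult stages. At E19.5 the medians of complexes I, II, III and V were 0.49, -0.21, 0.32 and -0.06.

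Between E10.5 and E14.5 most members of complexes II, III and V had lower values and those of complex I went both ways, but the medians of all 4 complexes were above 0 with the control level as a covariate. This stage pair was chosen after the trough had been seen. Of the 65 members, 19 fell and 9 rose in the limma test, where 26% of the genes above the limit fell and 17.7% rose. Both counts over all members were near these shares. The median difference was -0.50, beside -0.07 for all genes above the limit. In complex V 8 of 15 fell and 1 rose (median -0.87), in complex III 3 of 8 fell (median -0.84), in complex II 2 of 4 fell (median -0.92), and in complex I 4 of 34 fell and 7 rose (median -0.09), the latter close to the share of all genes above the limit. Under that fit these medians were 0.16, 0.44, 0.26 and 0.50 in the same order, and 19 members rose and 0 fell, where 11.2% of the genes above the limit rose and 6.02% fell. Quantile normalisation, run again, gave 14 risen and 18 fallen.

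Atp5b, the catalytic beta subunit of the ATP synthase head, read 11.02, 11.13 and 9.74 at E10.5 and 9.04, 8.64 and 9.50 at E14.5. All arrays of E14.5 were below those of E10.5, and the gap to the lowest E10.5 array was small. The gene fell by 1.57 ± 0.32 (log2, SE, n = 3 per stage, limma adjusted p = 0.000399), a 2.97-fold drop. With the control level as a covariate the difference was -0.64 and did not pass (adjusted p = 0.201). Its partner in the head, the alpha subunit Atp5a1, read 10.98, 11.15 and 10.28 against 9.64, 9.38 and 10.43. The third E14.5 array lay inside the range of E10.5, and the fall was 0.99 (adjusted p = 0.0167 by limma). Atp5c1, the central stalk, stood 0.62 lower without passing the test (adjusted p = 0.0524). The peripheral stalk gene Atp5o fell by 1.30 ± 0.33 (limma adjusted p = 0.00356), with arrays of 11.11, 10.90 and 9.77 against 9.10, 8.91 and 9.85 that overlapped. With the covariate none of these other genes passed either, and the differences of Atp5a1, Atp5c1 and Atp5o were 0.11, 0.16 and -0.15 (limma adjusted p = 0.864, 0.731 and 0.818).

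In complex II the flavoprotein gene Sdha read 9.56, 9.80 and 8.68 at E10.5 and 8.18, 7.92 and 8.76 at E14.5. It fell by 1.06 ± 0.31 (adjusted p = 0.00982 by limma), with the third arrays crossing over. The membrane anchor Sdhd read 8.46, 8.66 and 7.45 and then 7.23, 6.92 and 7.37. These arrays did not overlap, and Sdhd fell by 1.02 ± 0.26 (limma adjusted p = 0.00423). Another Sdhd probe set of like level (mean 7.32, the chosen one 7.62) did not share this course. Its difference was 0.40 here (limma adjusted p = 0.101), -0.003 from E14.5 to E19.5 and -0.09 from there to young adults. Sdhb, the iron-sulphur protein, and Sdhc, the other anchor, did not pass the test, with differences of -0.25 and -0.83. In complex III the core protein gene Uqcrc1 fell by 1.13 (adjusted p = 0.0115), Uqcr10 by 0.94 and the hinge protein gene Uqcrh by 0.94. The Rieske iron-sulphur gene Uqcrfs1 stood 0.81 lower with an adjusted p of 0.122 in limma. The calls of this paragraph were all lost with the control level as a covariate, which gave differences of 0.00 for Sdha, -0.39 for Sdhd, 0.01 for Uqcrc1, -0.03 for Uqcr10 and -0.52 for Uqcrh (limma adjusted p = 0.996, 0.475, 0.993, 0.961 and 0.285).

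The members that rose were nearly all of complex I. They were Ndufa5 (0.68), Ndufs7 (0.64), Ndufb7 (0.59), Ndufb11 (0.58), Ndufa13 (0.53), Ndufs8 (0.53) and Ndufv2 (0.50), with Ndufa4l2 (0.46) and the ATP synthase gene Atp5h (0.39). These values belong to the chosen probe sets. Another probe set of Ndufs7 (-0.86), Ndufv2 (-0.57), Atp5h (-0.56), Ndufb7 (-0.35), Ndufb11 (-0.29), Ndufs8 (-0.24) and Ndufa5 (0.02) did not rise. A further one of Ndufb11 (0.56), Ndufs8 (0.52) and Ndufv2 (0.43) did rise. Ndufs7 and Ndufs8 encode iron-sulphur subunits on the electron path to the ubiquinone site. Ndufb7 read 10.88, 10.80 and 11.12 at E10.5 and 11.53, 11.63 and 11.42 at E14.5, and these arrays were apart (0.59 ± 0.10, limma adjusted p = 6.58e-05, and 0.55 with the control level as a covariate). Of these 9 genes 7 lacked a passing negative slope on the control level inside the stages. The 54 members with a passing negative slope on the control level counted 2 risen and 18 fallen (median -0.56), and the 11 others counted 7 risen and 1 fallen (median 0.46). In level, the 32 members above a mean of 9.81 had a median of 0.10, and the 33 below it had -0.83.

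The number of calls between E10.5 and E14.5 depended on single arrays. It was 14 without E10.5 replicate 1 (7 risen, 7 fallen), 12 without E10.5 replicate 2 (7 and 5), 18 without E14.5 replicate 1 (8 and 10) and 14 without E14.5 replicate 2 (7 and 7). With the 3′ to 5′ gap as a covariate it was 0, at a median of -0.37.

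From E14.5 to E19.5 the direction was uniform. Of the 65 members, 62 had a positive difference, 28 rose and 0 fell (0 of those with a negative difference at unadjusted p below 0.05, limma), where 8.63% of the genes above the limit rose and 17.6% fell. The median was 0.64, beside -0.09 for all genes above the limit. All 4 complexes took part, with 15 of 34 members of complex I risen (median 0.56), 1 of 4 of complex II (0.72), 5 of 8 of complex III (1.04) and 5 of 15 of complex V (0.78). This stage pair, too, was chosen after the course had been seen. The covariate gave 51 risen and 0 fallen members and a median of 0.76, where 12.3% of the genes above the limit rose and 20.1% fell.

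Ndufa4 had the largest rise among the members. Its arrays read 7.53, 7.17 and 8.40 at E14.5 and 9.56, 9.65 and 8.45 at E19.5, so that the stages were apart, though only narrowly in the third arrays. The difference was 1.52 ± 0.35 (2.86-fold, limma adjusted p = 0.00277). Uqcrq, a small accessory subunit of complex III, read 8.16, 7.94 and 9.04 and then 10.13, 10.21 and 9.26, without overlap. It rose by 1.49 ± 0.39 (2.81-fold, adjusted p = 0.00818). Within complex III, Uqcr11 rose by 1.29, Uqcr10 by 1.27, Uqcrc1 by 1.05 and Uqcrh by 1.03. Uqcrfs1 (0.55), Uqcrc2 (0.26) and Uqcrb (0.06) did not pass.

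In complex I the largest rises were those of Ndufa1, a small accessory subunit encoded on the X chromosome, and Ndufv1, the core subunit that binds NADH. Ndufa1 read 10.05, 10.07 and 11.13 at E14.5 and 12.05, 12.04 and 11.42 at E19.5, with no overlap (1.42 ± 0.33, adjusted p = 0.00329). Ndufv1 read 9.78, 9.81 and 10.22 and then 11.48, 11.50 and 10.92. The arrays of E19.5 were all higher, and the rise was 1.36 ± 0.18 (2.57-fold, limma adjusted p = 2.53e-06).

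In complex V the alpha subunit gene Atp5a1 read 9.64, 9.38 and 10.43 at E14.5 and 11.32, 11.44 and 10.29 at E19.5. It rose by 1.20 ± 0.31 (limma adjusted p = 0.00745) with the third arrays overlapping. Atp5d, of the central stalk, read 10.88, 10.79 and 11.28 and then 12.15, 12.44 and 11.68. It rose by 1.11 ± 0.16 (adjusted p = 9.25e-06) without overlap. Atp5k (1.19), Atp5g1 (1.16) and Atp5g3 (1.09) rose as well, whereas Atp5b stood 0.84 higher with an adjusted p of 0.0784. In complex II only Sdhd passed (0.82 ± 0.26, adjusted p = 0.0341), and Sdha (0.83, adjusted p = 0.0695) and Sdhb (0.62, adjusted p = 0.0885) did not.

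Here too the count moved with the arrays in the fit. It was 18, 15, 17 and 15 without E19.5 replicate 1, E19.5 replicate 2, E14.5 replicate 1 and E14.5 replicate 2, and 1 with the title form as a covariate, for which E16.5 alone holds both forms. The median was 0.62 with that covariate.

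Across the whole embryonic series, from E10.5 to E19.5, most of the members that rose belonged to complex I. Of the 65 members, 23 rose and 3 fell, where 24.1% of the genes above the limit rose and 39% fell, and the median was 0.31 beside -0.21. Complex I accounted for 17 of the 23, with 2 of its 34 members fallen and a median of 0.49. Complex III had 2 of 8 risen (median 0.32), complex V 3 of 15 (median -0.06), and complex II 0 of 4 in either direction (median -0.21, 0 at unadjusted p below 0.05, limma). The risen members also differed from the others in level. Of the 32 members above a mean of 9.81, 20 rose (median 0.76), and of the 33 others 3 rose (median -0.26). The parts of level and complex were not tested. With the control level as a covariate 51 members rose and 0 fell, where 16.6% of the genes above the limit rose and 16.9% fell, and complexes II and V then had medians of 1.18 and 1.19, beside 1.28 for complex I. Quantile normalisation and median centring gave 32 and 34 risen and 0 fallen. With probe sets that carry no cross-hybridisation suffix (52 members) 8 rose, 8 fell and the median was -0.20, and with the title form as a covariate 13 rose.

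**Figure D3:**
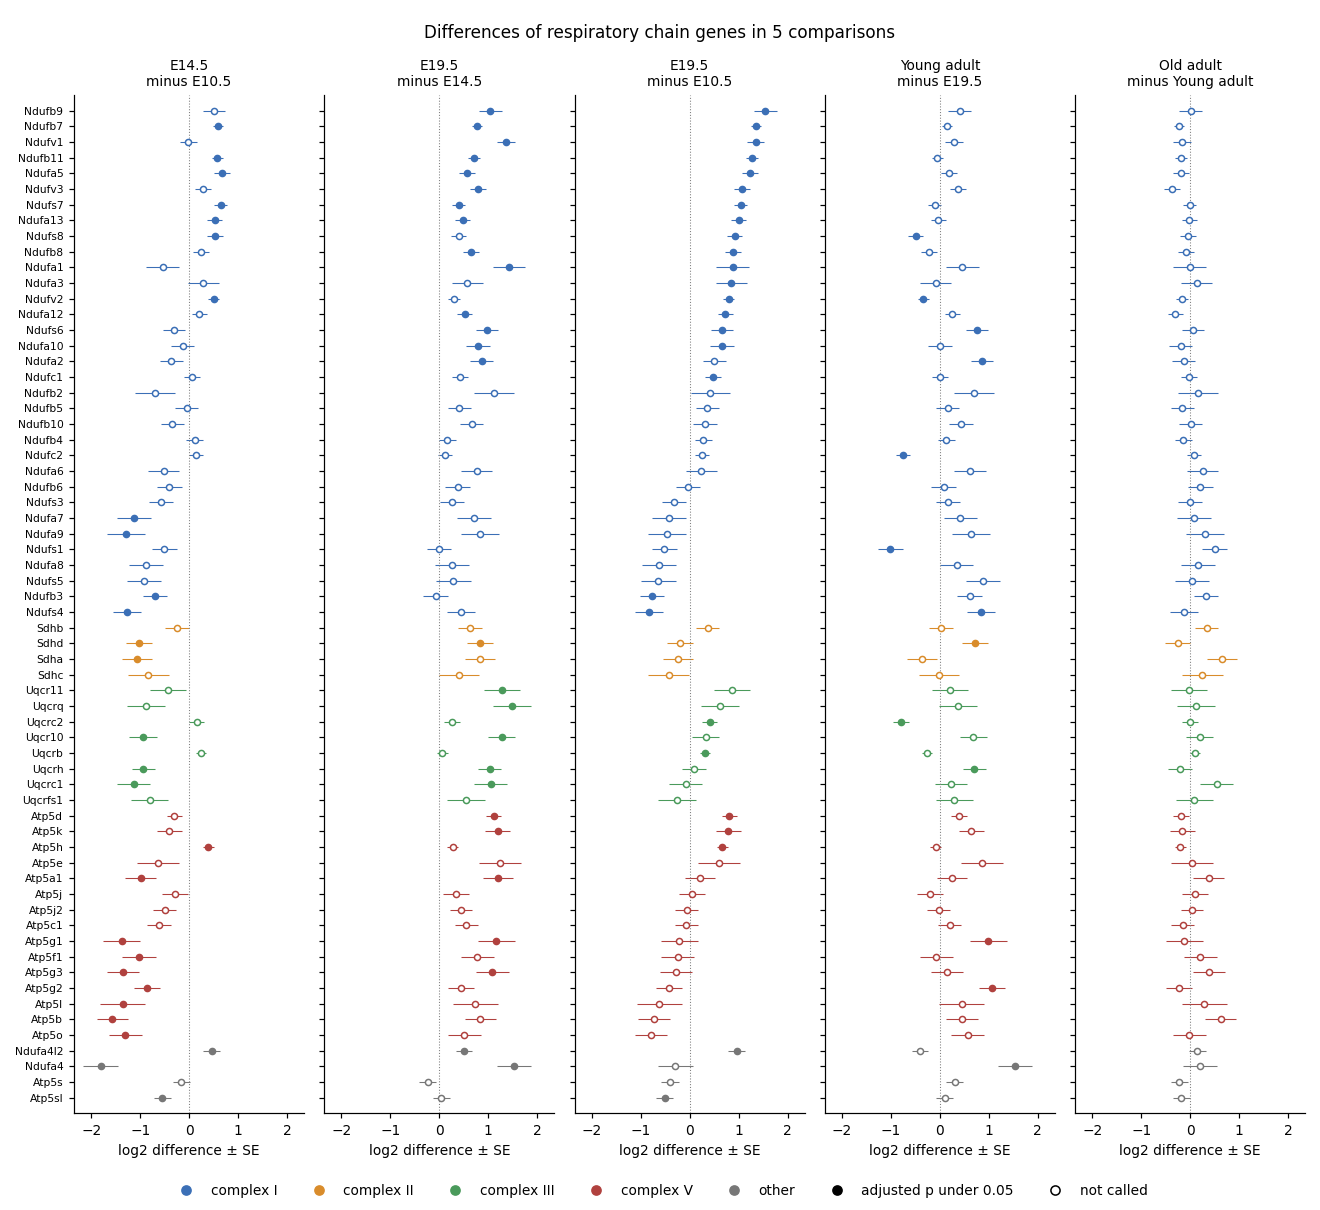
Log2 difference ± SE (x axes) of the members (rows, coloured by complex, 1 not shown) in 5 comparisons, with filled points for members that passed limma at adjusted p below 0.05. From E14.5 to E19.5 no filled point lies below 0.

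Ndufb9, an accessory subunit of the membrane arm, had the largest difference of all members. It read 10.39, 10.15 and 9.94 at E10.5, 10.61, 10.71 and 10.68 at E14.5 and 11.73, 11.73 and 11.66 at E19.5. The 3 stages were apart from each other, and the rise from first to last was 1.55 ± 0.23 (2.92-fold, limma adjusted p = 2.69e-06). Its step to E14.5 did not pass (0.51, limma adjusted p = 0.105). Another Ndufb9 probe set above the limit differed from E10.5 by -0.64 at E14.5 and 0.63 at E19.5. Neither passed (limma adjusted p = 0.189 and 0.144). Ndufb7 continued its climb to 12.31, 12.24 and 12.31 at E19.5. It ended 1.35 ± 0.10 higher than at E10.5 (2.55-fold, adjusted p = 6.07e-12). Another accessory subunit of the membrane arm, Ndufb11, went from 11.11, 11.08 and 11.20 through 11.70, 11.70 and 11.72 to 12.48, 12.37 and 12.38. Each of these steps was free of overlap, and the total rise was 1.28 ± 0.12 (2.43-fold, adjusted p = 4.43e-10). Ndufv1 took another route to a rise of like size (1.35 ± 0.18, adjusted p = 4.34e-07), with a difference of -0.01 up to E14.5 and all of it afterwards. From E10.5 to E19.5 another probe set of Ndufb7 (0.32), Ndufb11 (0.58) and Ndufv1 (0.29) did not pass. A further one of Ndufb11 (1.22) and Ndufv1 (1.22) rose.

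Among the core subunits of complex I, Ndufv1, Ndufs7 (1.04), Ndufs8 (0.92) and Ndufv2 (0.80) rose on the chosen probe sets. Another probe set of Ndufs7 (-0.22), Ndufs8 (-0.15) and Ndufv2 (-0.60) did not rise, and a further one of Ndufs8 (0.90) and Ndufv2 (0.82) did. Ndufs3 (-0.32) and Ndufs1 (-0.52) did not pass. Among the accessory subunits the risen ones also included Ndufa5 (1.24), Ndufv3 (1.06), Ndufa13 (1.00), Ndufb8 (0.88), Ndufa1 (0.88) and Ndufa12 (0.73). Another probe set of Ndufa5 (0.14) and Ndufa12 (-0.17) did not pass, and a further one of Ndufa12 (0.76) rose. The 3 members that fell were Ndufs4, an accessory subunit near the NADH site (0.83 lower), Ndufb3 (0.77 lower) and Atp5sl (0.51 lower). Ndufs4 read 8.29, 8.13 and 7.10 at E10.5, 6.43, 6.09 and 7.19 at E14.5 and 7.27, 7.04 and 6.71 at E19.5. The outer stages overlapped through the third E10.5 array (adjusted p = 0.0172). Ndufb3 read 9.70, 9.80 and 9.53 at E10.5 and 9.14, 8.82 and 8.75 at E19.5, apart from each other (adjusted p = 0.0137). Both genes had differences of 0.27, above 0, with the control level as a covariate. Their calls were also lost without single arrays, that of Ndufs4 in 3 cases, with E10.5 replicate 1 the farthest (adjusted p = 0.118), and that of Ndufb3 without E19.5 replicate 3 (0.0587) or E10.5 replicate 2. That of Ndufa1 was lost in 4 cases, with an adjusted p of up to 0.0996 by limma (E10.5 replicate 3).

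Outside complex I, Atp5d (0.81), Atp5k (0.79), Atp5h (0.66), Uqcrc2 (0.41) and Uqcrb (0.31) rose. These values belong to the chosen probe sets. Another probe set of Atp5d (0.06), Atp5h (-0.06), Uqcrc2 (-0.34) and Uqcrb (-0.92) did not rise, while the others of Atp5k (0.72 and 0.64) did. The calls of Uqcrc2 and Uqcrb were lost in 5 and 3 of the 6 cases of 1 array left out, with limma adjusted p up to 0.0856 (E19.5 replicate 3) and 0.0858 (E10.5 replicate 2). The catalytic gene Atp5b stood 0.73 lower at E19.5 than at E10.5 (limma adjusted p = 0.0606) and Atp5a1 0.21 higher (adjusted p = 0.588). Markers of other cells moved over the same days. Of 7 cardiomyocyte markers 5 rose and 0 fell, of 5 fibroblast markers 4 rose and 1 fell, of 5 erythroid markers 4 fell, and of 4 proliferation markers 3 fell. In other lists all 4 brown adipocyte markers and 2 of 4 macrophage markers rose. Of 5 endothelial markers 2 rose and 1 fell, of 3 epicardial markers 1 rose and 2 fell, and of 5 skeletal muscle markers 1 rose and 2 fell. Among the genes above the limit 24.1% rose and 39% fell. The mean of the erythroid list went from between 9.12 and 9.82 to between 3.75 and 3.96, and that of the cardiomyocyte list from between 10.5 and 10.8 to between 11.0 and 11.5. The part of these lists in the members' differences was not tested.

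After birth the members moved in both directions. Between E19.5 and young adults 8 of 65 rose and 5 fell, where 17.3% of the genes above the limit rose and 28.9% fell, and the median was 0.25 beside -0.10. The risen members came from all 4 complexes and the fallen ones from complexes I and III. Complex I had 3 risen and 4 fallen of 34 (median 0.22), complex III 1 and 1 of 8 (0.26), complex V 2 and 0 of 15 (0.39), and complex II 1 and 0 of 4 (0.01). With the control level as a covariate 50 rose and 3 fell (27.2% and 24% of the genes above the limit), and the median was 0.97. Quantile normalisation gave 15 risen and 5 fallen, and median centring 22 and 3.

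Ndufa4 rose again. It read 9.56, 9.65 and 8.45 at E19.5 and 10.83, 10.80 and 10.65 in young adults, apart from each other, for a difference of 1.54 ± 0.35 (2.91-fold, limma adjusted p = 0.000988). Ndufa2, an accessory subunit of the arm that reaches into the matrix, went from 10.45, 10.56 and 10.09 to 11.19, 11.27 and 11.22 (0.86 ± 0.23, adjusted p = 0.00475). Ndufs6, another accessory subunit of that arm, went from 10.12, 10.07 and 9.63 to 10.74, 10.79 and 10.57 (0.76 ± 0.22, adjusted p = 0.00919). In both genes every adult array was above every E19.5 array. The chosen Ndufs4 probe set read 7.91, 7.93 and 7.69 in young adults. It differed by 0.84 ± 0.28 from E19.5 (limma adjusted p = 0.0239) and by 0.01 from E10.5, or by 1.99 from E10.5 with the control level as a covariate. Another Ndufs4 probe set above the limit had no loss to E19.5 (0.12, limma adjusted p = 0.714). In young adults that probe set stood 1.06 above E10.5 (limma adjusted p = 0.00105). Sdhd (0.71 ± 0.26, adjusted p = 0.0397) and Uqcrh (0.71 ± 0.24, adjusted p = 0.025) rose, and Ndufs5 stood 0.88 higher with an adjusted p of 0.0596.

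The fallen members were the core subunits Ndufs1, Ndufs8 and Ndufv2, the accessory subunit Ndufc2 and the complex III core protein Uqcrc2. Ndufs1, the large subunit that carries 3 of the iron-sulphur clusters, read 9.07, 8.87 and 8.50 at E19.5 and 7.45, 7.88 and 8.07 in young adults. It fell by 1.01 ± 0.25 (2.02-fold, limma adjusted p = 0.00242), and by 0.15 with the control level as a covariate. Ndufc2 read 11.79, 11.71 and 11.73 and then 10.91, 11.07 and 10.99, each stage within a narrow range and both far apart. It fell by 0.76 ± 0.15 (1.69-fold, adjusted p = 0.000142), and by 0.40 with the covariate. Uqcrc2 read 12.41, 12.27 and 12.37 and then 11.39, 11.77 and 11.50, also apart. It fell by 0.80 ± 0.16 (1.74-fold, adjusted p = 0.000213), and by 0.41 with the covariate. Ndufs8 (0.50 lower, adjusted p = 0.0171) and Ndufv2 (0.34 lower, adjusted p = 0.029) had risen before birth.

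The same 3 genes were the least like the rest in their course. The Pearson correlation of the 12 stage means with the median profile was -0.53 for Ndufc2, -0.46 for Ndufs1 and -0.39 for Uqcrc2, as a description in which all stages share the arrays. Ndufs1 ended 1.53 ± 0.25 below its E10.5 level in young adults (2.89-fold, limma adjusted p = 5.69e-06), the largest fall of any member in that comparison, but 0.40 above it with the control level as a covariate. Over the same span 33 members rose and 4 fell, where 27.1% of the genes above the limit rose and 47.2% fell (median 0.52 beside -0.34). The largest rises were those of Ndufb9 (1.95, 3.87-fold), Ndufv1 (1.64), Ndufb7 (1.49) and Atp5e (1.46).

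The count for E19.5 and young adults was 6 without E19.5 replicate 3 and 8 without young adult replicate 1, and 3 with the 3′ to 5′ gap as a covariate. The calls of Sdhd and Atp5g1 were lost without any 1 of the 6 arrays (limma adjusted p up to 0.14 and 0.181, both without E19.5 replicate 3), that of Ndufs4 without 3 of them (up to 0.106, without E19.5 replicate 3), and that of Ndufs8 without E19.5 replicate 3 or young adult replicate 1 (up to 0.132). Of the 4 macrophage markers all 4 rose between these stages, with a list mean of 5.38 to 5.50 at E19.5 and 7.46 to 7.53 in young adults, and of the 7 cardiomyocyte markers 0 rose and 3 fell. Other lists moved too. Of 5 fibroblast markers 1 rose and 3 fell, of 4 proliferation markers 3 fell, and of 3 smooth muscle markers 2 rose and 1 fell. Of 5 endothelial markers 2 rose, of 3 white adipocyte markers 2, and of 5 skeletal muscle markers 1. Of 3 epicardial markers 1 fell. Among the genes above the limit 17.3% rose and 28.9% fell. The part of these in the members' differences was not tested.

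The stricter limits that the study used, adjusted p below 1e-05 with a log2 difference beyond 2 and a mean above 5, were passed by 0 members in any of these comparisons. Of the genes above the limit, 4.61% passed them from E10.5 to E19.5, 3.31% from E19.5 to young adults and 14.2% from E10.5 to young adults, and 0.0177% between old and young adults. Among these comparisons the largest member difference, that of Ndufb9 between E10.5 and young adults, was 1.95. Other stage pairs were not put to these limits, and some lie farther apart, as with Ndufa4, whose stage mean was 7.30 at E15.5 and 10.76 in young adults.

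In 2 cases the rule took several genes for 1 subunit. The c subunit of the membrane ring of complex V is encoded by Atp5g1, Atp5g2 and Atp5g3, which give the same mature protein with different import sequences, and their upstream stretches are printed near the beginning. All 3 fell from E10.5 to E14.5, by 1.38 (limma adjusted p = 0.00686), 0.87 (0.0154) and 1.36 (0.0022), each with overlapping arrays. With the control level as a covariate these differences were -0.02, -0.05 and -0.26.

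Atp5g1 read 7.93, 7.61 and 8.79 at E14.5, 9.48, 9.50 and 8.84 at E19.5 and 10.23, 10.40 and 10.16 in young adults. It rose in both intervals, by 1.16 ± 0.38 (limma adjusted p = 0.0371) and by 0.99 ± 0.38 (adjusted p = 0.0474), with no overlap in either. Atp5g2 read 7.12, 7.22 and 7.62, then 7.95, 7.82 and 7.50, and then 8.72, 8.85 and 8.93. Only its second interval passed, with 1.07 ± 0.27 (2.10-fold, adjusted p = 0.00245) after 0.44 (adjusted p = 0.311). Atp5g3 read 10.64, 10.18 and 11.64, then 12.09, 12.22 and 11.41, and then 12.02, 12.09 and 12.05. It passed in the first interval (1.09 ± 0.33, adjusted p = 0.0232) and had 0.15 in the second (adjusted p = 0.784), where the arrays overlapped. The differences between the 3 genes were not tested, and with the control level as a covariate all 3 passed in both intervals, with 1.44, 0.61 and 1.31 up to E19.5 and 2.31, 1.86 and 1.21 after birth.

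Ndufa4 and its paralogue Ndufa4l2, which is known as a gene induced by low oxygen, also differed. Ndufa4 fell by 1.81 ± 0.35 from E10.5 to E14.5 (3.50-fold, limma adjusted p = 0.000238), the largest fall of any member there, from 9.83, 10.09 and 8.61 to 7.53, 7.17 and 8.40. Under the covariate fit the difference was -0.77 and did not pass (limma adjusted p = 0.144). Ndufa4l2 read 3.48, 3.71 and 3.76 (E10.5), 4.19, 4.24 and 3.89 (E14.5), 4.20, 4.83 and 4.81 (E19.5) and 4.46, 4.28 and 3.88 (young adults). It rose by 0.96 ± 0.17 to E19.5 (adjusted p = 3.48e-05), but every stage mean lay below the limit of 5 and near the level of genes that are not detected.

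**Figure D4:**
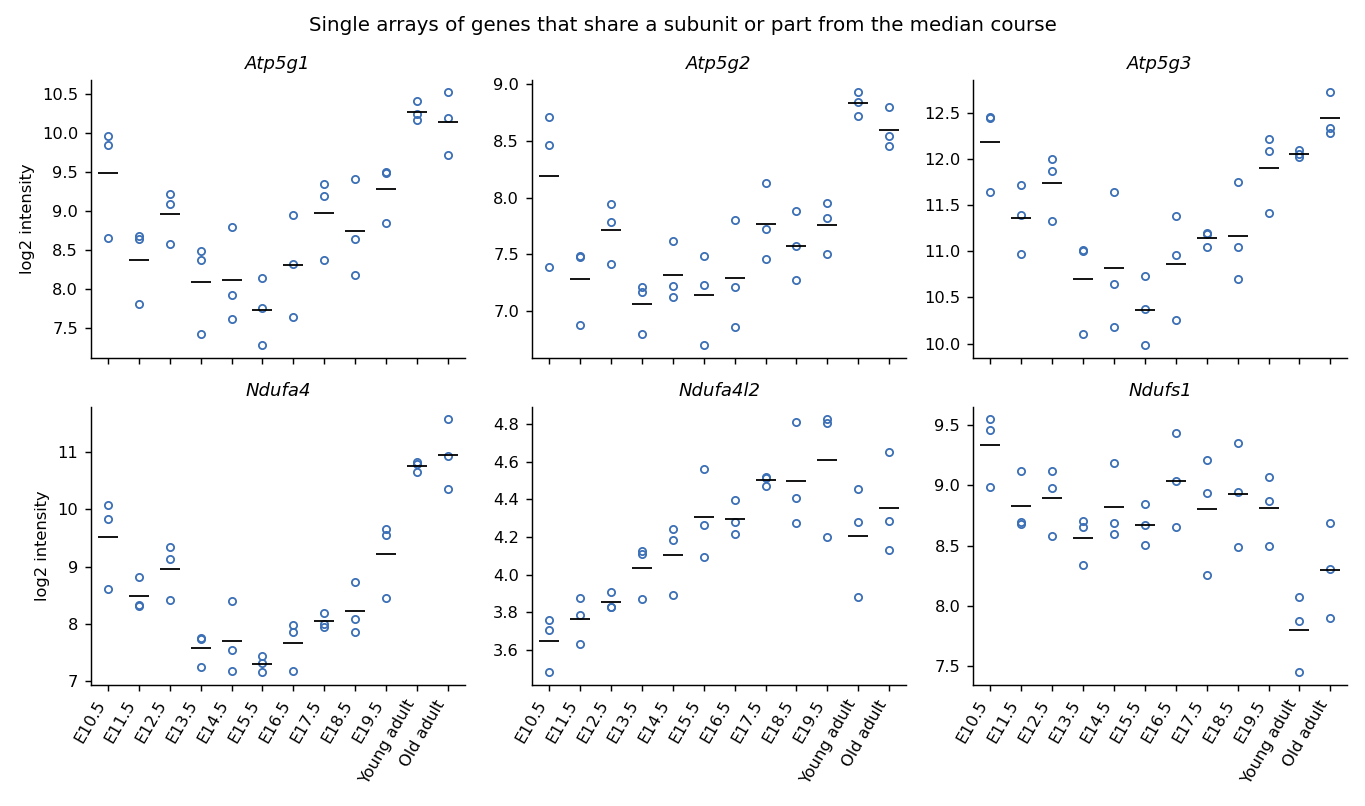
Log2 intensity (y axis) on each of the 3 arrays per stage (points) with the stage mean (short bar) over the 12 stages (x axis) for Atp5g1, Atp5g2, Atp5g3, Ndufa4, Ndufa4l2 and Ndufs1. Ndufs1 lay between 7.45 and 8.07 in young adults, below its range of 8.50 to 9.07 at E19.5.

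Single days rarely held a passing step. In the 9 steps from one embryonic day to the next, 5 of the 65 members passed at least once. This was near the share of the genes above the limit, 8.77%. Atp5b (1.26 ± 0.32 lower, limma adjusted p = 0.0279) and Sdhd (1.11 ± 0.26 lower, adjusted p = 0.019) fell from E10.5 to E11.5, where 2.23% of the genes above the limit fell. Sdhd read 8.46, 8.66 and 7.45 and a day later 7.60, 6.74 and 6.88, so that the third E10.5 array lay inside the range of E11.5. Ndufa4 fell by 1.39 ± 0.35 from E12.5 to E13.5 (adjusted p = 0.0416), where 0.99% fell.

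The last embryonic day brought rises in Atp5d and Ndufv1. Atp5d read 11.56, 11.32 and 11.37 at E18.5 and 12.15, 12.44 and 11.68 at E19.5, without overlap (0.68 ± 0.16, limma adjusted p = 0.026). Ndufv1 read 10.95, 10.61 and 10.28 and then 11.48, 11.50 and 10.92, with a slight overlap (0.68 ± 0.18, adjusted p = 0.0494). Of the genes above the limit 0.928% rose on that day. From E15.5 to E16.5, the step at which the median turned, 64 of 65 members had a positive difference, but 0 passed and 1 did so at an unadjusted p below 0.05.

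Between old and young adults 0 members passed in either direction (4 at an unadjusted p below 0.05, limma), where 7.33% of the genes above the limit rose and 3.2% fell. The median difference was 0.01, beside 0.12 for all genes above the limit. Sdha and Atp5b were among the members with the largest differences. Sdha read 8.52, 8.84 and 8.89 in young and 9.90, 9.10 and 9.23 in old adults, apart but with a wide spread (0.66 ± 0.31, adjusted p = 0.19). The first old array, from a male, was the highest. Atp5b read 10.11, 10.26 and 10.69 and then 11.52, 10.62 and 10.81, with overlap (0.63 ± 0.32, adjusted p = 0.232). Ndufv3 was the lowest, with 12.63, 12.84 and 12.80 in young and 12.43, 12.33 and 12.38 in old adults (-0.38 ± 0.16, adjusted p = 0.159). With the control level as a covariate, which stood at 12.17 in young and 11.37 in old adults, 27 members fell, 0 rose, and the median was -0.54, where 4.75% of the genes above the limit fell and 3.55% rose.

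No member passed the comparison of male and female hearts. In 9 pairs of male and female arrays of the same stage from E13.5 on, 0 members passed (limma with stage as a block, lowest adjusted p = 0.617), where 0.0619% of the genes above the limit did. Only 1, Atp5s, lay below an unadjusted p of 0.05 by limma, with a male minus female difference of -0.19. The X-linked members Ndufa1 and Ndufb11 had differences of -0.14 (adjusted p = 0.732) and -0.03 (adjusted p = 0.942).

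Other probe sets of the same genes did not always follow the chosen one. For 32 members, 48 further probe sets could be compared, and their difference had the opposite sign for 19 from E10.5 to E19.5, 18 from E10.5 to E14.5, 13 from E19.5 to young adults, but for 3 from E14.5 to E19.5. In 2 cases both probe sets passed with opposite signs. The chosen Uqcrb probe set rose by 0.31 to E19.5 while the other fell by 0.92 (limma adjusted p = 0.0171), and the chosen Ndufs7 probe set rose by 0.64 to E14.5 while the other fell by 0.86 (adjusted p = 0.0341).

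Genes that serve the complexes from outside were read in the same way. Of 27 assembly factors, which build the complexes without being part of them, 13 fell and 0 rose from E10.5 to E14.5, where 26% of the genes above the limit fell, and 11 fell and 3 rose from E10.5 to E19.5. The latter number of falls is near the 39% of the genes above the limit that fell there, and the lists given here were not fitted with the control level as a covariate. Among the assembly factors were the complex I factors Ndufaf1 (1.57 lower) and Ndufaf7 (1.15 lower), the ATP synthase factors Tmem70 (1.19 lower) and Atpaf1 (0.90 lower), and Sdhaf2 (0.89 lower), while Ndufaf8 (0.55) and Ndufaf4 (0.47) rose. From E19.5 to young adults 5 rose and 5 fell, where 17.3% of the genes above the limit rose and 28.9% fell. The number of rises was near that 17.3%. Ttc19, a complex III factor, fell by 2.00 and the iron-sulphur carrier Nubpl rose by 1.51.

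Of 13 citrate cycle genes 3 rose and 4 fell to E19.5, and 0 rose and 4 fell from there to young adults. Of the genes above the limit 24.1% rose and 39% fell to E19.5, and 17.3% rose and 28.9% fell after birth. The rises to E19.5 and the falls in both intervals were near these shares. Citrate synthase, Cs, fell by 0.86 ± 0.13 after birth (limma adjusted p = 4.89e-06) in the interval where most members of the chain did not pass. Of 14 electron carriers, ubiquinone synthesis genes and dehydrogenases around the ubiquinone pool, 0 rose and 5 fell to E19.5. These falls were near the 39% of the genes above the limit. Gpd2, the mitochondrial glycerol phosphate dehydrogenase, was 1.63 lower, and Coq9 rose by 1.15 in young adults. Of the 6 chain genes that the symbol rule leaves out, Ndufab1 rose by 0.41 to E19.5 and fell by 0.74 after birth, and cytochrome c1 (Cyc1, 0.97) and cytochrome c (Cycs, 0.89) rose from E14.5 to E19.5. Of 20 genes encoded in the mitochondrial genome 1 was on the array, ND5, which rose by 1.04 to E14.5 and fell by 0.63 from there to E19.5.

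The regulators of mitochondrial biogenesis moved in both directions. Of 14 listed, 6 rose and 6 fell from E10.5 to E19.5, where 24.1% of the genes above the limit rose and 39% fell. The number of falls was near that 39%. The nuclear receptor Ppara rose by 2.00 ± 0.22 (limma adjusted p = 1.62e-08), the coactivators Ppargc1b by 2.03 ± 0.23 (adjusted p = 2.82e-08) and Ppargc1a by 0.81, and the ERR receptors Esrra by 1.04 and Esrrb by 0.88. The factors that fell were Tfam, the mitochondrial transcription factor (2.06 ± 0.29 lower, adjusted p = 9.87e-07), Tfb1m (1.72 lower), Gabpa (1.51 lower), Yy1 (0.94 lower), Gabpb1 (0.78 lower) and Nrf1 (0.30 lower). From E19.5 to young adults 2 rose and 7 fell, Ppargc1b among the latter (1.58 lower). There 17.3% of the genes above the limit rose and 28.9% fell, and the number of rises was near that 17.3%.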

How the data were processed

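RNA of mouse hearts was measured on Affymetrix Mouse430 arrays, 3 for each of 12 stages. The deposited values are log2 intensities of 45101 probe sets, which the authors made with the robust multi-array average (RMA); the submitters' processing notes also name Affymetrix Expression Console and Partek 6.6. RMA applies quantile normalisation over all arrays, so a value is relative to the other transcripts of its array. The deposited values were still not level. Quantile normalisation run again moved the median of all genes above the limit from -0.21 to 0.08 (E19.5 against E10.5). For young adults against E10.5 it moved from -0.34 to 0.04.

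Groups were taken from the sample labels. The values were fitted with limma 3.58.1 in R 4.3.3 with 1 mean per stage over all 36 arrays (empirical Bayes, prior df 6.96) and Benjamini-Hochberg adjustment over all probe sets. Members were called at adjusted p below 0.05, and background shares were taken over 11317 genes whose mean passed 5 in some stage. The number of arrays limits the precision. The p-values rest on the spread between the arrays of a stage, pooled over all stages. From E12.5 on these arrays differ in sex, and the spread of the members within stages moved with the control level. It is therefore not the spread between like hearts. Named members were the 4 highest and the 4 lowest of the comparisons from E10.5 to E19.5 to adults, the catalytic and core subunits, subunits with several genes, the 3 courses least like the median, probe sets that disagreed and X-linked members. That rule named 31 members, and others named in the text were chosen after their values were seen. The members and gene lists were chosen with earlier results of these data known. Simulated data had the spread of E19.5 and young adults, with 200 of 45101 probe sets changed. In them 3.5% of log2 changes of 0.5, 79% of changes of 1 and 100% of changes of 2 were recovered. In the data 17.3% of the genes above the limit rose and 28.9% fell between these stages. The adjustment depends on how many probe sets change, so the simulated rates do not carry over to the data. Normalisation, filters, probe set choice, left-out arrays, a replicate block, control levels and title form were tried as alternatives. The E14.5 comparisons and the 3′ to 5′ and poly-A covariates were added after seeing the data. Values of some single genes are not reported here.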

Additional observations from a re-analysis of the deposited data

How the results depend on the processing

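Calls are given as numbers of members and medians as log2 differences. Quantile normalisation changed the calls to 20 for young adults against E19.5 and to 1 for old against young adults. Median centring gave 25 and 1 for these and 44 for E19.5 against E14.5, with medians of 0.65 for E19.5 and 1.05 for young adults against E10.5. The median of all genes above the limit moved from -0.21 to 0.13 (E19.5 against E10.5), from -0.34 to 0.18 (young adults against E10.5), from -0.10 to 0.08 (young adults against E19.5), from 0.12 to -0.02 (old against young) and from -0.07 to 0.13 (E14.5 against E10.5) under centring. Centring turned Ndufc2 to 0.028 and Uqcrc2 to 0.14 in young adults against E10.5. Probe sets without a suffix for cross-hybridisation, which 52 members have, gave 16 calls and a median of -0.20 for E19.5 against E10.5, 20 calls and 0.22 for young adults against E10.5, 1 for old against young and 12 for E19.5 against E14.5. They turned Ndufs8 to -0.15, Ndufc2 to -1.24, Ndufa12 to -0.48, Atp5a1 to -0.71 and Uqcrb to -0.92 (E19.5 against E10.5), Ndufc2 to 0.42 and Atp5c1 to -0.84 (young adults against E19.5), Ndufs8 to -0.33, Ndufa12 to -0.91 and Atp5c1 to -1.13 (young adults against E10.5) and Atp5c1 to 0.97 (old against young).

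The hybridisation control level as a covariate gave 51 calls and a median of 1.20 (E19.5 against E10.5), 53 and 0.97 (young adults against E19.5), 56 and 2.15 (young adults against E10.5), 27 and -0.54 (old against young), a median of 0.39 (E14.5 against E10.5), 51 calls (E19.5 against E14.5) and 17 for the daily steps. It turned Ndufb3 to 0.27, Ndufs4 to 0.27, Atp5g1 to 1.43, Ndufs5 to 0.89, Sdha to 1.04, Uqcrc1 to 1.29, Sdhc to 1.37, Uqcrfs1 to 1.46, Atp5c1 to 0.87 and Atp5g3 to 1.06 (E19.5 against E10.5), Sdha to 0.65 and Sdhc to 1.42 (young adults against E19.5), and Ndufs5 to -0.94 and Uqcrfs1 to -1.01 (old against young). For young adults against E10.5 it turned Atp5b to 1.74, Ndufb3 to 1.72, Atp5o to 2.28, Ndufc2 to 0.31, Uqcrc2 to 0.47, Ndufs1 to 0.40, Sdha to 1.70, Sdhc to 2.79, Atp5g3 to 2.27 and Ndufa4l2 to -0.11. The title form as a covariate gave 13, 16 and 1 calls (E19.5 and young adults against E10.5, E19.5 against E14.5). The 3′ to 5′ gap gave 17, 3 and 0 (E19.5 against E10.5, young adults against E19.5, E14.5 against E10.5). The poly-A control level gave 48 calls and 1.06, 46 and 0.65, a median of 1.65, 10 and -0.45, 15 and 0.21, and 50 calls, in the order of comparisons given for the hybridisation controls. The causes were not tested.

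Without 1 array the calls ran from 21 to 28 (medians 0.15 to 0.47) for E19.5 against E10.5, from 6 to 13 (0.10 to 0.36) for young adults against E19.5, from 28 to 35 (0.37 to 0.59) for young adults against E10.5, from 12 to 38 (-0.69 to -0.37) for E14.5 against E10.5 and from 15 to 33 (0.57 to 0.80) for E19.5 against E14.5. For old against young adults they stayed at 0, with medians of -0.13 to 0.11. With the sex label as a replicate block, which names no shared litter, the calls were 23, 13, 33, 0, 32 and 28 in the order of comparisons given for the hybridisation controls. The number of arrays limits the precision of these values.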
